A study of Mus musculus with 20 samples.

Results

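The genes described here encode the subunits of oxidative phosphorylation, the 5 enzyme complexes of the inner mitochondrial membrane, together with the complex I assembly factors that carry the same symbol prefix. They were chosen by symbol in the GRCm38 annotation: protein-coding genes whose symbol starts with Nduf, Uqcr, Cox4, Cox5, Cox6, Cox7, Cox8 or Atp5, the genes Sdha, Sdhb, Sdhc, Sdhd and Cyc1, and the 13 mRNAs of the mitochondrial genome. The count table holds 47729 gene identifiers, and 107 of them met this rule. Of these, 94 are nuclear genes (44 of complex I, 4 of complex II, 9 of complex III, 20 of complex IV and 17 of complex V) and 13 are mitochondrial.

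Hippocampal RNA from male C57BL/6 mice was profiled by RNA-seq to ask how age and late-onset environmental enrichment (EE) act on gene expression. The 4 groups of 5 libraries each are 24mEE (age 24 months, enriched environment), 24mSC (age 24 months, standard cage), 5mEE (age 5 months, enriched environment) and 5mSC (age 5 months, standard cage). No genotype, drug or transgene is named for any group, and all 4 share strain, sex and tissue. The enriched cages of the old mice held running wheels and other objects and were given only late in life, and RNA was isolated from each hippocampus sample individually. The study's text does not describe the 5mEE mice. Libraries held 11 to 34.1 M counts (M, mega), and in all 20 the tissue markers of neurons, astrocytes and oligodendrocytes were present, with 8 of 8, 6 of 6 and 6 of 6 listed genes passing the filter on low counts. Library 5mSC replicate 3 stood apart before any comparison: 26.8% of its counts came from the mitochondrial ribosomal RNAs mt-Rnr1 and mt-Rnr2, against 0.883% to 1.82% in the other 19 libraries. Its 8 neuron markers summed to 4288 CPM (counts per M counts, on the TMM scale), against 6816 to 8442 CPM in the others. Its 8 choroid plexus markers summed to 379 CPM, against 35.1 to 143 CPM. Astrocyte (3172 CPM, against 3543 to 6043 CPM), oligodendrocyte (2854 CPM, against 3845 to 7254 CPM), interneuron and microglia sums were below the others too. Endothelium, pericyte and blood sums were inside the range of the others, and the muscle sum was above it. This library was also the smallest, at 11 M counts. The comparisons are therefore given with this library (20 libraries) and without it (19 libraries).

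Oxidative phosphorylation passes electrons from NADH (complex I) and succinate (complex II) through complex III and cytochrome c to oxygen at complex IV, and the proton gradient built on the way drives ATP synthase, complex V. All complexes except complex II combine subunits from both genomes: the mitochondrial genome encodes core subunits of complexes I, III, IV and V, while the nuclear genome encodes the remaining core subunits, the accessory subunits and the assembly factors. Neurons depend on this pathway for the ATP that ion pumping and synaptic transmission consume.

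Only 7 of the 13 mitochondrial mRNAs could be followed. The mRNAs mt-Co2, mt-Co3, mt-Atp6 and mt-Nd4l were listed with 0 counts in all 20 libraries, mt-Atp8 with 1 count in total and mt-Nd3 with 10 counts in total (0 to 2 per library). These genes encode subunits of complexes IV, V and I, so their listed zeros are not read as absence of the transcripts. Chromosome 1 carries a near-identical copy of this stretch of the mitochondrial genome, annotated as the pseudogenes Gm10222, Gm28438, Gm28437, Gm10925 and Gm28661. Aligned over their length, the copies of mt-Nd4l, mt-Co3, mt-Atp6 and mt-Co2 showed 0 differences over 294, 783, 678 and 681 bases, and 99.53% of the 50-base words of mt-Co2 and of mt-Atp6 and 99.86% of those of mt-Co3 occur in the copy. A read of 50 bases from such a stretch has more than 1 place in the genome. For mt-Atp8, 0% of the 50-base words occur in other annotated genes, so the copies named here do not cover its low count. The cause of that count was not tested. The copy of mt-Nd3, a core subunit gene of complex I, differed at a single base over 345 aligned bases: T3C, with the mRNA's base first and positions counted from 1 at the 5′ end. The first 50 bases of the pair are shown in lower case, with the differing base in capitals, because only reads that cover this base can be told apart, while 97.99% of the 50-base words of mt-Nd3 occur in the copy (GRCm38).
mt-Nd3 (chrM:9459-9508, plus strand): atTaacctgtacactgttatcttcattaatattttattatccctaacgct
Gm28438 (chr1:24613070-24613119, minus strand): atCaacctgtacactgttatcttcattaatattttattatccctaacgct
Gm28438 held 7466 counts over the 20 libraries where mt-Nd3 held 10. Gm28438 had 12.2 to 19.4 CPM in 24mEE, 9.62 to 18.1 CPM in 24mSC, 10.4 to 15.7 CPM in 5mEE and 11.4 to 91.5 CPM in 5mSC, where its median was 16.3 CPM. The highest value, 91.5 CPM, was that of 5mSC replicate 3, the library with the high mitochondrial rRNA share. The groups overlapped. Which of the 2 loci these reads came from was not tested. Of the 7 mRNAs that passed the filter, mt-Nd4 shares 62.23% and mt-Co1 51.14% of its 50-base words with other genes, so part of their signal may be missing from the counts, and mt-Nd6, which lies on the other strand, cannot be told apart from antisense RNA because the libraries do not mark the strand.

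The nuclear members were also set beside each other by their promoters, since transcription factors that act on many respiratory genes are known (NRF1, the ETS factor GABP, ERR and YY1). RefSeq promoter windows of GRCm38.p6, from 250 bases before to 50 bases after the start, were matched for 76 of the 94 nuclear genes. Both strands were searched for CGCATGCG (NRF1), CCGGAAGT (ETS, GABP), TCAAGGTCA (ERR) and AAGATGGCG (YY1), which do not contain each other, and 24 of the 76 genes held at least 1 match. The NRF1 letters occurred in 11 of 76 members (14.5%), against 2.77% of all 17492 genes with a window. The YY1 letters occurred in 8 members (10.5%), against 2.14%, the ERR letters in 2 members (2.63%), against 0.377%, and the ETS letters in 5 members (6.58%), against 5.69%. These shares describe letters in windows and are not binding. The windows of 5 members are shown as examples, with matches in capitals, and members with a match are more frequent among them than among the 76. Ndufa11, Uqcr11 and Cox6a1 each hold an NRF1 match, Uqcr11 also an ETS match and Cox8a a pair of ETS matches on the reverse strand (ACTTCCGG). Atp5g1 holds none of the 4 motifs in this window. Other members named in the comparisons were with a match (such as Ndufc1) or without (such as Atp5e, Cox7c, Ndufa3 and Ndufa13).
Ndufa11 (chr17:56717512-56717811, plus strand): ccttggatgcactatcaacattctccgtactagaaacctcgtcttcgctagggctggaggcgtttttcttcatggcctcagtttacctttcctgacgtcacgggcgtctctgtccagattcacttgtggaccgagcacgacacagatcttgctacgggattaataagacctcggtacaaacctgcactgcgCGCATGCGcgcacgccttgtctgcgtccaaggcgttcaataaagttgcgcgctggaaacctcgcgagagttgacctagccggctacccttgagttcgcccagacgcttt
Uqcr11 (chr10:80406772-80407071, minus strand): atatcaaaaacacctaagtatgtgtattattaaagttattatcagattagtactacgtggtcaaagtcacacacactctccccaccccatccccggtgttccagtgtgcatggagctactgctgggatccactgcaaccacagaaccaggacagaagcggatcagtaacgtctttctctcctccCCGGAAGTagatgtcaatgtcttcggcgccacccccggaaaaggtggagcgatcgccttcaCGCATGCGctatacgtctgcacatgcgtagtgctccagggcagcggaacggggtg
Cox6a1 (chr5:115348909-115349208, minus strand): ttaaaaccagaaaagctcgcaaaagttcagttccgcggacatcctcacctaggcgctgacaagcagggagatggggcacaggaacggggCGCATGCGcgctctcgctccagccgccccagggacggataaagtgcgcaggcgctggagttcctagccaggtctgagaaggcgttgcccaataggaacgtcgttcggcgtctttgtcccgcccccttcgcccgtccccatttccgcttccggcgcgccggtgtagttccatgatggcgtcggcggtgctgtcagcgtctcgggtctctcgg
Cox8a (chr19:7217567-7217866, minus strand): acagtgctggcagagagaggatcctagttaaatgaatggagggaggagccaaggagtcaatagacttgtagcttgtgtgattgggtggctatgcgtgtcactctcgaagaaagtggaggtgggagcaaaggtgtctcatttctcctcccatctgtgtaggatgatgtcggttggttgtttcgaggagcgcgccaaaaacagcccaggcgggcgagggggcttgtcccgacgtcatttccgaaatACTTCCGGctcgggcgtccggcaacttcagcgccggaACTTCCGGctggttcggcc
Atp5g1 (chr11:96075582-96075881, minus strand): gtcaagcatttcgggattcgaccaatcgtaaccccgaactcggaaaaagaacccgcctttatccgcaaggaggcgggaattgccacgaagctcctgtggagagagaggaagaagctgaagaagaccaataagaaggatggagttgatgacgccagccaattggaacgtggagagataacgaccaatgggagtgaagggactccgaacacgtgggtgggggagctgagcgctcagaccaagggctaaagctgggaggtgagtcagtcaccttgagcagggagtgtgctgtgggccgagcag

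After the filter on low counts, 91 of the 94 nuclear genes and 7 of the 13 mitochondrial mRNAs remained among 16692 genes tested. The 3 nuclear genes that did not pass, Cox7b2, Cox8b and Cox8c, are complex IV isoforms known from testis (Cox7b2, Cox8c) or from heart and muscle (Cox8b). Cox8c was listed at 0 in 17 of the 20 libraries. Levels between genes are compared as CPM per kb of exon, as the mean of the 19 libraries without 5mSC replicate 3. In complex I the highest gene was Ndufb9, an accessory subunit, at 177 CPM per kb, and the lowest Ndufab1, the mitochondrial acyl carrier protein, at 1.87 CPM per kb. In complex II, Sdha, the flavoprotein that oxidises succinate, stood at 105 CPM per kb and Sdhc, a membrane anchor, at 21.7 CPM per kb. The levels of these 4 genes thus spanned a wide range even within a complex, and the annotated exon length, which includes rare long isoforms, enters each of them. In complex III, Uqcr10, a small accessory subunit, had 130 CPM per kb and Uqcrc1, a core protein of the complex, 17.4 CPM per kb. In complex IV, Cox8a had 487 CPM per kb, the highest of all nuclear members, and Cox4i2 1.19 CPM per kb. In complex V, Atp5a1, the alpha subunit of the catalytic F1 head, had 294 CPM per kb and Atp5g2 0.664 CPM per kb, a value that is uncertain because 38.35% of its 50-base words occur in other genes. 

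The 7 mitochondrial mRNAs were all above the highest nuclear member on this scale. The order was mt-Cytb (cytochrome b of complex III) at 6512 CPM per kb, mt-Nd1 at 5861, mt-Co1 (the catalytic subunit of complex IV) at 5441, mt-Nd2 at 3858, mt-Nd5 at 2747, mt-Nd6 at 2700 and mt-Nd4 at 2662 CPM per kb. The last 3 differed by less than their spread between libraries. This order is that of the listed counts over the full exon length. Of the short words described above, mt-Co1 shares 51.14% and mt-Nd4 62.23% with other genes. Their values may therefore be too low, and their places in the order are uncertain. In sum, the mitochondrial mRNAs took 35688 ± 3688 CPM in 24mEE, 34830 ± 5645 CPM in 24mSC, 36021 ± 3481 CPM in 5mEE and 41463 ± 13424 CPM in 5mSC (SD, n = 5 each). Without replicate 3 the 5mSC sum was 35680 ± 4159 CPM (n = 4), inside the range of the other groups.

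Gene by gene, the group means of these mRNAs lay close together once that library was left out. The CPM of mt-Nd1 was 5605 ± 517 in 24mEE, 5521 ± 972 in 24mSC, 5691 ± 606 in 5mEE and 6644 ± 2359 in 5mSC (SD, n = 5 each), with 5620 ± 654 in 5mSC without replicate 3. The CPM of mt-Nd2, like mt-Nd1 a membrane-arm subunit of complex I, was 3761 ± 608 in 24mEE, 3718 ± 631 in 24mSC, 4387 ± 543 in 5mEE and 4997 ± 1857 in 5mSC (4188 ± 486 without replicate 3). In mt-Nd2 the young means stayed above the old ones without that library, while in mt-Nd1 the 4 means then lay within 1 SD of each other. The CPM of mt-Nd4 was 3627 ± 337 in 24mEE, 3441 ± 506 in 24mSC, 3771 ± 349 in 5mEE and 4257 ± 937 in 5mSC (3873 ± 433 without replicate 3). The CPM of mt-Nd5 was 5276 ± 490 in 24mEE, 5054 ± 709 in 24mSC, 5032 ± 585 in 5mEE and 5018 ± 1331 in 5mSC (4595 ± 1081 without replicate 3). Both encode proton-pumping subunits of complex I, and mt-Nd5 had its lowest single value, 3249 CPM, in 5mSC replicate 1. The CPM of mt-Nd6 was 1421 ± 94.8 in 24mEE, 1385 ± 205 in 24mSC, 1374 ± 142 in 5mEE and 1801 ± 843 in 5mSC (1432 ± 203 without replicate 3). The CPM of mt-Cytb was 7391 ± 794 in 24mEE, 7186 ± 1085 in 24mSC, 7636 ± 712 in 5mEE and 9974 ± 5309 in 5mSC (7621 ± 818 without replicate 3). The CPM of mt-Co1 was 8606 ± 949 in 24mEE, 8525 ± 1561 in 24mSC, 8130 ± 667 in 5mEE and 8773 ± 1554 in 5mSC (8351 ± 1426 without replicate 3). With all 20 libraries, mt-Co1 and mt-Nd5 had the smallest differences between 24mSC and 5mSC.

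The nuclear members summed to 9495 ± 462 CPM in 24mEE, 9629 ± 613 CPM in 24mSC, 9425 ± 70.7 CPM in 5mEE and 11250 ± 1750 CPM in 5mSC (SD, n = 5 each). The 5mSC libraries had 12331, 9567, 13707, 9824 and 10822 CPM in replicates 1 to 5, so replicates 2 and 4 lay inside the range of the 24-month groups (8857 to 10354 CPM) and replicates 1, 3 and 5 above it. Without replicate 3 the 5mSC sum was 10636 ± 1253 CPM (n = 4). The 5mSC spread was thus wider than in every other group with or without that library, and the 5mEE spread the narrowest. The ratio of mitochondrial to nuclear CPM was 3.75 ± 0.212 in 24mEE, 3.6 ± 0.369 in 24mSC, 3.83 ± 0.389 in 5mEE and 3.65 ± 0.715 in 5mSC (3.38 ± 0.46 without replicate 3), with 2.76 in 5mSC replicate 1 and 4.71 in 5mSC replicate 3 as its lowest and highest values. In bulk RNA, fewer cells of a type and less RNA per cell cannot be told apart.

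**Figure D1:**
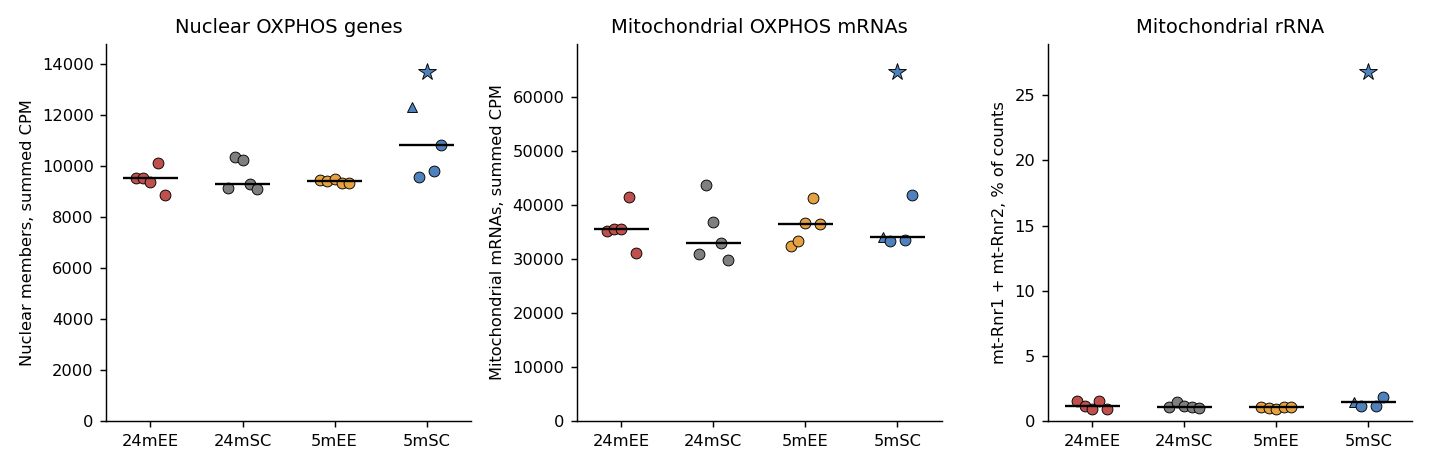
Summed CPM of the nuclear members (left) and of the mitochondrial mRNAs (middle), and the percentage of counts from mt-Rnr1 and mt-Rnr2 (right), in each library by group; each point is a library, the black line the median of 5, the star 5mSC replicate 3 and the triangle 5mSC replicate 1. Nuclear sums lie between 8857 and 10354 CPM in the 3 groups other than 5mSC, and 5mSC replicates 1 and 3 reach 12331 and 13707 CPM, with 26.8% mitochondrial rRNA in replicate 3 alone.

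By complex, the 5mSC excess was uneven. Complex IV genes summed to 1859 ± 182 CPM in 24mEE, 1900 ± 216 CPM in 24mSC, 1777 ± 14.9 CPM in 5mEE and 2557 ± 936 CPM in 5mSC (2158 ± 326 without replicate 3). Complex I genes summed to 2633 ± 175 CPM in 24mEE, 2656 ± 183 CPM in 24mSC, 2606 ± 18.5 CPM in 5mEE and 3078 ± 397 CPM in 5mSC (3002 ± 415 without replicate 3). Complex V and complex III had their highest mean in 5mSC as well. Complex II had 722 ± 9.85 CPM in 24mEE, 724 ± 16.1 CPM in 24mSC, 708 ± 16.6 CPM in 5mEE and 685 ± 132 CPM in 5mSC, where it is the lowest of the 4 means and becomes the highest, 742 ± 44.6 CPM, once replicate 3 is left out.

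In 5mSC replicate 3 the members went in both directions. Of the 91 nuclear genes, 52 were above and 39 below the median of the other 19 libraries, and 40 lay above and 26 below the whole range of those libraries. The highest were Cox7a1 (4.69 log2 units above the median), Atp5e (3.94), Ndufb4 (3.78), Ndufa7 (2.95) and Uqcr11 (2.94). These encode short proteins: isoforms or accessory subunits of complexes IV, I and III and the epsilon subunit of ATP synthase. The lowest were Cox5a (-1.04), Atp5b (-0.91), Sdha (-0.89), Uqcrc1 (-0.88) and Uqcrc2 (-0.86), among them the catalytic beta subunit of ATP synthase. All 7 mitochondrial mRNAs were above their median, by 0.35 (mt-Co1) to 1.41 (mt-Cytb).

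The deviation in that library varied with the length of the coding sequence. Over the 91 nuclear members Spearman's rho between coding length and deviation was -0.69, as a description across genes of 1 library, against -0.04 over all 14552 protein-coding genes tested. The 22 members with a coding length under 300 nt had a median deviation of 1.12 log2 units (all 247 such genes 0.34), the 43 members of 300 to under 600 nt 0.53 (all genes 0.10), the 10 members of 600 to under 900 nt -0.19 (all genes -0.09) and the 16 members of 900 nt or more -0.55 (all genes -0.08). By class medians short members were high and long members low, but not every short member was: Cox5a (438 nt) was the lowest of all at -1.04, and Ndufa8 (516 nt, -0.54), Sdhd (477 nt, -0.47) and Cox6a2 (291 nt, -0.46) were below their medians too. In 5mSC replicate 1 the median deviation was above 0 in every length class of members, at 0.48, 0.45, 0.42 and 0.25 log2 units from the shortest class to the longest (all genes 0.32, 0.26, 0.19 and -0.05), and rho was -0.49, the same as over all 14552 genes (-0.49). In 5mSC replicate 5 the medians were 0.40, 0.31, 0.18 and 0.01 (all genes 0.25, 0.14, 0.05 and -0.03), with rho -0.74 (-0.31 over all genes). In 5mSC replicates 2 and 4 no class departed from the median by more than 0.08. In the 15 libraries outside 5mSC the median of the longest class lay between -0.03 and 0.05. Their rho ran from -0.58 in 24mEE replicate 4 to 0.61 in 24mEE replicate 5, with -0.53 in 24mSC replicate 2, so negative values as large as that of 5mSC replicate 1 also occurred outside 5mSC. The shortest class had medians of 0.22 in 24mEE replicate 4, -0.29 in 24mEE replicate 5 and 0.26 in 24mSC replicate 2. The part that RNA quality or library preparation had in these differences was not tested.

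**Figure D2:**
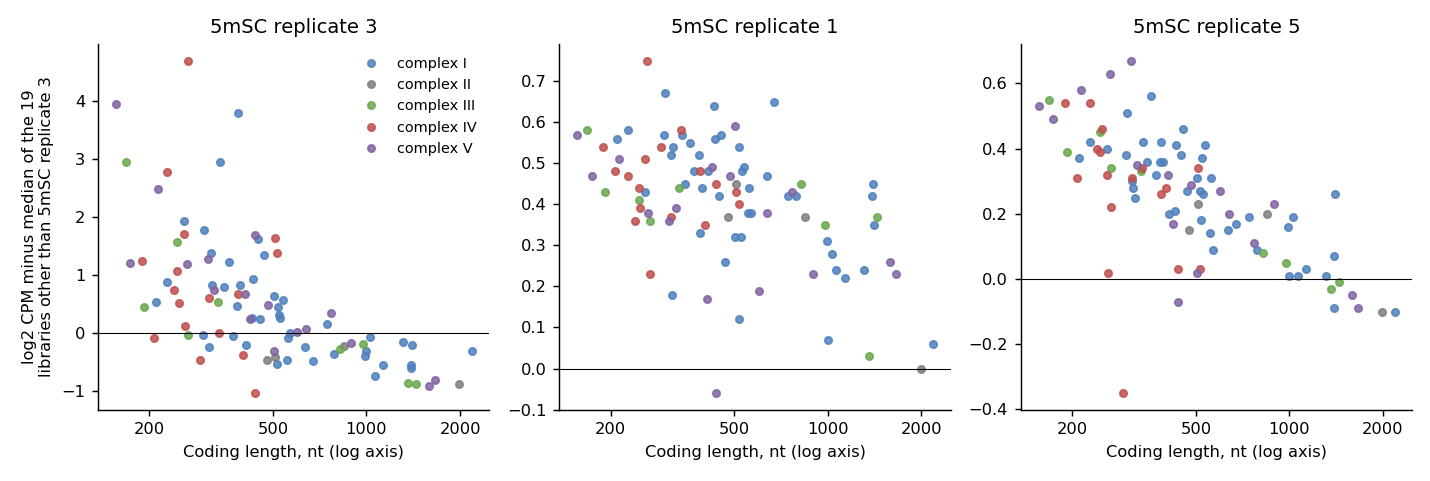
Deviation of each nuclear member from its median in the 19 libraries other than 5mSC replicate 3 (log2 CPM, vertical) against coding length in nt (horizontal, log axis), in 5mSC replicates 3, 1 and 5, with points coloured by complex and a vertical scale of its own in each panel. In 5mSC replicate 3 the deviations run from -1.04 to 4.69 and are highest in short genes, against -0.06 to 0.75 in replicate 1 and -0.35 to 0.67 in replicate 5.

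The first comparison, 24mSC vs. 5mSC, asks for the effect of age in standard cages. Nuclear members were mostly lower at 24 months, by a small amount that did not pass the test in the full set of libraries. Of 91 nuclear genes 79 had a negative and 12 a positive log2 fold change, with a median of -0.20 (-0.01 over all genes tested, -0.14 over the 1776 genes with an exon length under 1500 nt). By complex the median was -0.19 in complex I, -0.07 in complex II, -0.17 in complex III, -0.26 in complex IV and -0.23 in complex V. With edgeR's quasi-likelihood test and Benjamini-Hochberg adjustment, 0 of 91 nuclear genes and 0 of 7 mitochondrial mRNAs passed, where 134 genes or 0.803% of all tested did. At an unadjusted p under 0.05, 44 nuclear genes were lower (11.7% of all genes were) and 1 was higher, Cox6a2. In 3 members all 24mSC libraries lay below all 5mSC libraries, Cox6b2, Ndufaf2 and Ndufb2 (1.56% of all genes did).

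Which libraries stood for 5mSC decided how many members passed. In the 19 libraries 1 nuclear gene, Atp5g1, passed (3.58% of all genes), 46 of 91 were lower at an unadjusted p under 0.05 (11.6% of all genes), and the median was -0.19. Of the 7 choroid plexus markers tested, 6 had positive values there (median 0.49) and 1, Prlr, passed, and their part in the members' values was not tested. Without both 5mSC replicates 1 and 3, 11 of 91 were lower at that level (10.1% of all genes), close to the share of all genes, and the median was -0.10. Leaving out a 5mSC library with low nuclear sums did the opposite: 30 members passed without replicate 2 (6.67% of all genes) and 11 without replicate 4 (2%), all lower in 24mSC. The DESeq2 Wald test on all 20 libraries called 13 nuclear members (4.55% of all genes), again all lower in 24mSC, namely Atp5g1 and Atp5mpl of complex V, Cox6b1 and Cox7c of complex IV, Uqcrb of complex III, the complex I subunits Ndufa1, Ndufa3, Ndufa5, Ndufa12, Ndufc1 and Ndufs5, and the assembly factors Ndufaf2 and Ndufaf4. The model of limma voom with sample quality weights called 0 (15 nuclear genes lower at an unadjusted p under 0.05, where 7.93% of all genes were). Those weights were 0.0777 for 5mSC replicate 3 and 0.19 for 5mSC replicate 1, against 0.687 to 1.88 for the others.

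Atp5g1 encodes 1 of 3 copies of subunit c, the rotor ring of ATP synthase, and lies on chromosome 11 (96068852 to 96075670, minus strand). Atp5g1 had 15.1, 12.4, 12.5, 11.8 and 12 CPM in 24mSC, against 15.8, 14.3, 22.3, 16.2 and 17.6 CPM in 5mSC. The groups overlapped through 24mSC replicate 1 and 5mSC replicate 2. The log2 fold change was -0.42 ± 0.106 (SE) with an adjusted p of 0.0543 in 20 libraries, -0.34 ± 0.0896 with an adjusted p of 0.0413 in 19 libraries, and -0.34 with an adjusted p of 0.0647 without both 5mSC replicates 1 and 3. Its level was 13.1 ± 1.49 CPM in 24mEE, 12.8 ± 1.33 CPM in 24mSC, 14.4 ± 0.718 CPM in 5mEE and 17.2 ± 3.07 CPM in 5mSC (SD, n = 5 each).

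Atp5e encodes the epsilon subunit of the F1 stalk and has the shortest coding sequence of those named here. Atp5e had 65.5, 88.8, 85.5, 68.7 and 67.6 CPM in 24mSC, against 110, 79.1, 1139, 80.4 and 107 CPM in 5mSC. A single library set the size of its difference: the log2 fold change was -2.0 ± 0.554 (adjusted p = 0.0722) in 20 libraries and -0.33 ± 0.120 (adjusted p = 0.110) without it. Cox7c, a small membrane subunit of cytochrome c oxidase, had 8.65, 7.64, 8.66, 7.71 and 7.18 CPM in 24mSC, against 12.6, 8.09, 20.2, 8.91 and 12.6 CPM in 5mSC. Its log2 fold change was -0.62 ± 0.173 (adjusted p = 0.0722) and -0.42 ± 0.128 (adjusted p = 0.0675) in 19 libraries, and 22.11% of its 50-base words occur in other genes. Uqcr11, a small complex III subunit whose promoter is shown above, behaved like Atp5e: it had 66.9, 85, 81.8, 65.4 and 65.2 CPM in 24mSC, against 110, 74.6, 564, 85 and 108 CPM in 5mSC. In each of these 4 genes 5mSC replicate 2 was the 5mSC library nearest to 24mSC and replicate 3 the farthest.

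The 3 genes without overlap between the groups were not those with the largest differences. Cox6b2, the testis isoform of subunit 6b, had 1.88, 2.53, 2.19, 2 and 1.87 CPM in 24mSC, against 2.73, 2.74, 3.17, 2.61 and 2.63 CPM in 5mSC. Ndufaf2, a complex I assembly factor, had 11.4, 12.5, 13, 13.3 and 11.2 CPM in 24mSC, against 16.7, 14.4, 20.8, 13.6 and 16.7 CPM in 5mSC, with a log2 fold change of -0.41 ± 0.115 (adjusted p = 0.0722, and 0.0731 in 19 libraries). Its exons overlap an antisense gene over 65.65% of their length, so part of its counts may not be its own. Ndufb2, an accessory subunit of complex I, had 21.3, 23.9, 23.7, 23.1 and 22.4 CPM in 24mSC, against 27, 25.3, 61.7, 25.6 and 29.1 CPM in 5mSC. In all 3 genes the gap between the nearest libraries of the groups was small beside the range within 5mSC.

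Among the mitochondrial mRNAs, the smallest p values in this comparison belonged to mt-Nd2, mt-Nd4 and mt-Cytb. For mt-Cytb, 24mSC libraries had 6399, 8872, 7615, 6829 and 6216 CPM, against 7589, 6985, 19387, 7126 and 8786 CPM in 5mSC. The 5mSC replicate 3 alone was outside the range of the other libraries. The log2 fold change of mt-Cytb was -0.47 ± 0.219 (adjusted p = 0.226), and -0.09 ± 0.109 in 19 libraries (adjusted p = 0.647). For mt-Nd2 it was -0.43 ± 0.186 (adjusted p = 0.206), and -0.18 ± 0.129 in 19 libraries, and for mt-Nd4 -0.31 ± 0.136 (adjusted p = 0.210), and -0.18 ± 0.105 in 19 libraries. The median over the 7 mRNAs was -0.31, against -0.01 over all genes tested and -0.14 over genes with an exon length under 1500 nt. At an unadjusted p under 0.05, 3 of the 7 were lower, where 11.7% of all genes were. Without 5mSC replicate 3 the median of the 7 was -0.06, and 0 were past that level by edgeR (11.6% of all genes were lower). The nuclear median was nearly as low without that library (-0.19), but -0.10 without both 5mSC replicates 1 and 3.

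**Figure D3:**
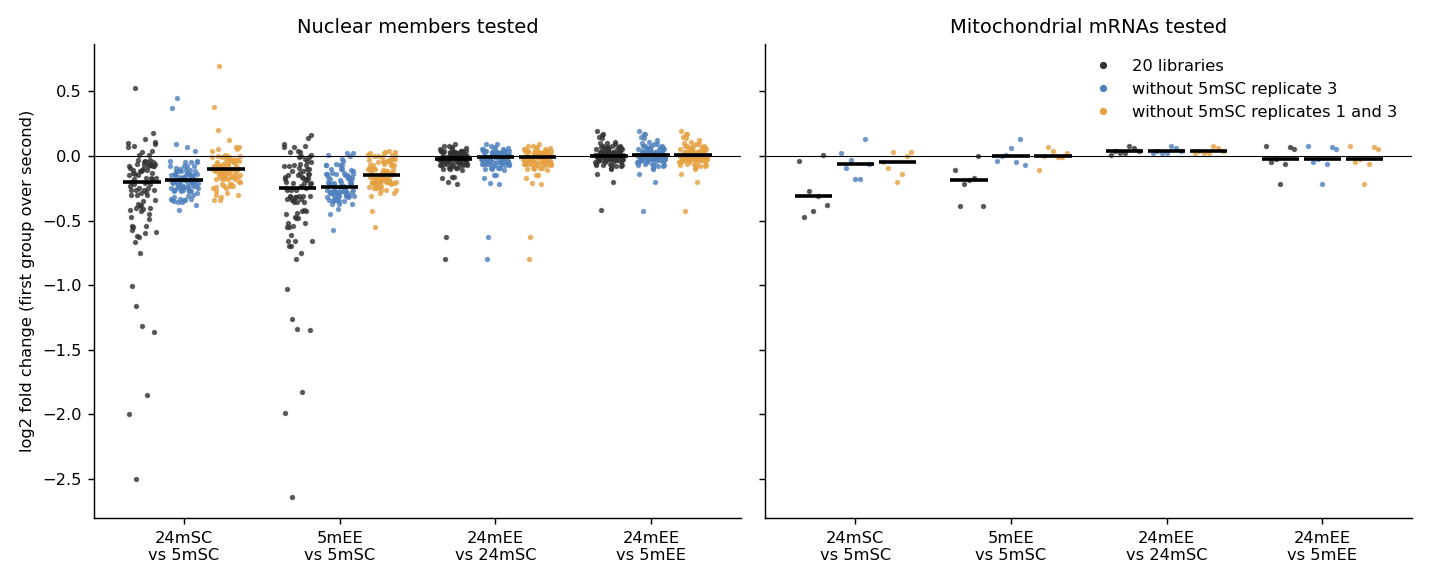
Log2 fold changes (first group over second) of the 91 nuclear members (left) and 7 mitochondrial mRNAs (right) in each comparison, with 20 libraries, without 5mSC replicate 3 and without 5mSC replicates 1 and 3; each point is a gene and the black line the median. The nuclear medians of 24mSC vs. 5mSC (-0.20, -0.19 and -0.10 in the 3 fits) and of 5mEE vs. 5mSC (-0.25, -0.24 and -0.15) lie below 0. The mitochondrial medians of these comparisons move to -0.06 and 0.00 in 19 libraries.

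The second comparison, 5mEE vs. 5mSC, sets enriched against standard housing in young mice and uses the same 5mSC libraries, so its values are given beside those of age and not as a second line of evidence. Nuclear members again had mostly negative log2 fold changes: 80 of 91, with a median of -0.25 (-0.02 over all genes, -0.18 over genes with an exon length under 1500 nt). Complex IV had the lowest median, -0.34, and complex II the highest, -0.05. By edgeR 0 nuclear and 0 mitochondrial members passed (0% of all genes), 49 of 91 nuclear genes were lower at an unadjusted p under 0.05 (10% of all genes), and 8 members had every 5mEE library below every 5mSC library (0.875% of all genes): Cox4i1, Cox6b1, Cox6b2, Ndufa11, Ndufa6, Ndufb11, Ndufc1 and Ndufs5. In 19 libraries 0 members passed (0.00597% of all genes), 54 were lower at an unadjusted p under 0.05 (8.04% of all genes), and the nuclear median was -0.24. In these 19 libraries the 7 choroid plexus markers tested were all above 0 in log2 fold change (median 0.78), 5 of 7 of them higher at an unadjusted p under 0.05. The 8 listed summed to 48.6 to 143 CPM in 5mEE, against 35.1 to 61.5 CPM in 5mSC without replicate 3, and their part in the members' values was not tested. Without both 5mSC replicates 1 and 3, 22 were lower at that level (4.44% of all genes), with a median of -0.15. DESeq2 called 0 members (45 nuclear and 1 mitochondrial lower at an unadjusted p under 0.05, 9.63% of all genes), and limma voom with quality weights called 0 (12 nuclear lower at that level, 3.21% of all genes).

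The 3 nuclear genes with the smallest p were accessory subunits of complex I. Ndufa3 (chromosome 7, 3617373 to 3620327) had 55.9, 58.9, 60, 60.4 and 56.5 CPM in 5mEE, against 95.6, 58.4, 205, 68.5 and 85.5 CPM in 5mSC. Its log2 fold change was -0.80 ± 0.217 (adjusted p = 0.223), and -0.41 ± 0.106 in 19 libraries (adjusted p = 0.265). Ndufa13, also known as GRIM-19, had 91.2, 94.4, 90.7, 90.7 and 86.5 CPM in 5mEE, against 135, 93.5, 173, 105 and 121 CPM in 5mSC. In both genes only 5mSC replicate 2 reached into the 5mEE range. The log2 fold change of Ndufa13 was -0.47 ± 0.124 (adjusted p = 0.223), and -0.34 ± 0.0996 in 19 libraries (adjusted p = 0.304). Its exons overlap Tssk6 on the opposite strand over 29.98% of their length, so its reads are not certain. Ndufa11, whose promoter with an NRF1 match is shown above, had 51.3, 48.8, 51.2, 51.2 and 50.1 CPM in 5mEE, against 80.1, 56.1, 61.2, 58.3 and 59.3 CPM in 5mSC. Here the groups did not overlap, and 5mSC replicate 1, not replicate 3, was the high library. The log2 fold change of Ndufa11 was -0.32 ± 0.0887 (adjusted p = 0.223), and -0.34 ± 0.0918 in 19 libraries (adjusted p = 0.288).

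For the mitochondrial mRNAs in 5mEE vs. 5mSC the median log2 fold change was -0.19 (6 of 7 negative), and 0.00 in 19 libraries. With limma voom and quality weights it turned to 0.01 (6 of 7 positive). The smallest p values were those of mt-Nd6 (-0.39 ± 0.195, adjusted p = 0.320), mt-Cytb (-0.39 ± 0.218, adjusted p = 0.378) and mt-Nd4 (-0.17 ± 0.136, adjusted p = 0.514). For mt-Nd6, 5mEE libraries had 1255, 1228, 1446, 1574 and 1369 CPM, against 1657, 1269, 3276, 1251 and 1550 CPM in 5mSC. Without 5mSC replicate 3 these 3 genes had log2 fold changes of -0.07, 0.00 and -0.05.

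The third comparison, 24mEE vs. 24mSC, asks for the effect of late-onset enrichment. No value of 5mSC enters its group means, but the 5mSC libraries share in the filter, the scaling and the spread of the 4-group model. Members differed little: the nuclear median was -0.02 (60 of 91 negative) and the mitochondrial median 0.04 (7 of 7 positive), against 0.00 over all genes. By edgeR 0 nuclear and 0 mitochondrial members passed (0% of all genes, and 0.0358% in 19 libraries), and 2 of 91 nuclear genes were lower at an unadjusted p under 0.05 (3.99% of all genes). The count over all genes was 6 without 5mSC replicate 3, 10 without 5mSC replicate 2 and 187 in a fit of these 2 groups alone, with 0 members called in each. DESeq2 called 0 members, with 2 nuclear genes lower at that level (4.16% of all genes). The 2 genes by edgeR are tissue isoforms of complex IV.

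Cox6a2 is the heart and skeletal muscle isoform of subunit 6a (chromosome 7, 128205435 to 128206387, minus strand). Cox6a2 had 1.95, 3.48, 3.17, 2.34 and 2.83 CPM in 24mEE, against 3.97, 4.80, 5.08, 4.37 and 3.06 CPM in 24mSC. Only 24mSC replicate 5 lay inside the 24mEE range. The log2 fold change was -0.63 ± 0.226 (unadjusted p = 0.0111, adjusted p = 0.552 in 20 libraries and 0.233 in 19), and limma voom with quality weights called it at -0.70, where 2.27% of all genes passed. In the young groups Cox6a2 had 1.79, 3.14, 2.69, 2.85 and 1.89 CPM in 5mEE, against 4.46, 3.47, 2.19, 2.16 and 2.41 CPM in 5mSC. The 6 listed muscle genes summed to 7.04 to 12.2 CPM in 24mEE, against 9.44 to 12.4 CPM in 24mSC. Of the 4 tested, 3 had a negative and 1 a positive log2 fold change, with a median of -0.49. At an unadjusted p under 0.05, 2 of them were lower, where 3.99% of all genes were. No muscle gene of the list was at 0 in all libraries of either group. Negative medians also held for the interneuron list (-0.11, 5 of 6 negative) and the blood list (-0.72, 5 of 5 negative). In both lists 0 genes were at an unadjusted p under 0.05. The part of muscle RNA or of any cell type in the Cox6a2 difference was not tested.

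Cox4i2, the isoform of subunit 4 known from lung, had 0.369, 0.644, 0.634, 0.664 and 1.01 CPM in 24mEE, against 1.58, 0.980, 0.894, 0.971 and 1.34 CPM in 24mSC. These are low levels, set beside a floor of 3 counts that is 0.0881 to 0.328 CPM depending on the library, and 24mEE replicate 5 overlapped 24mSC. Its log2 fold change was -0.80 ± 0.314 (unadjusted p = 0.0188, adjusted p = 0.632, and 0.212 in 19 libraries). The 6 pericyte markers summed to 137 to 156 CPM in 24mEE, against 135 to 206 CPM in 24mSC. The next gene by p, the complex I assembly factor Ndufaf5, had a log2 fold change of -0.09 ± 0.0722 (adjusted p = 0.999). The mitochondrial mRNAs with the smallest p were mt-Nd4 (0.08 ± 0.136), mt-Nd5 (0.06 ± 0.155) and mt-Nd6 (0.04 ± 0.194), each with an adjusted p of 0.999.

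**Figure D4:**
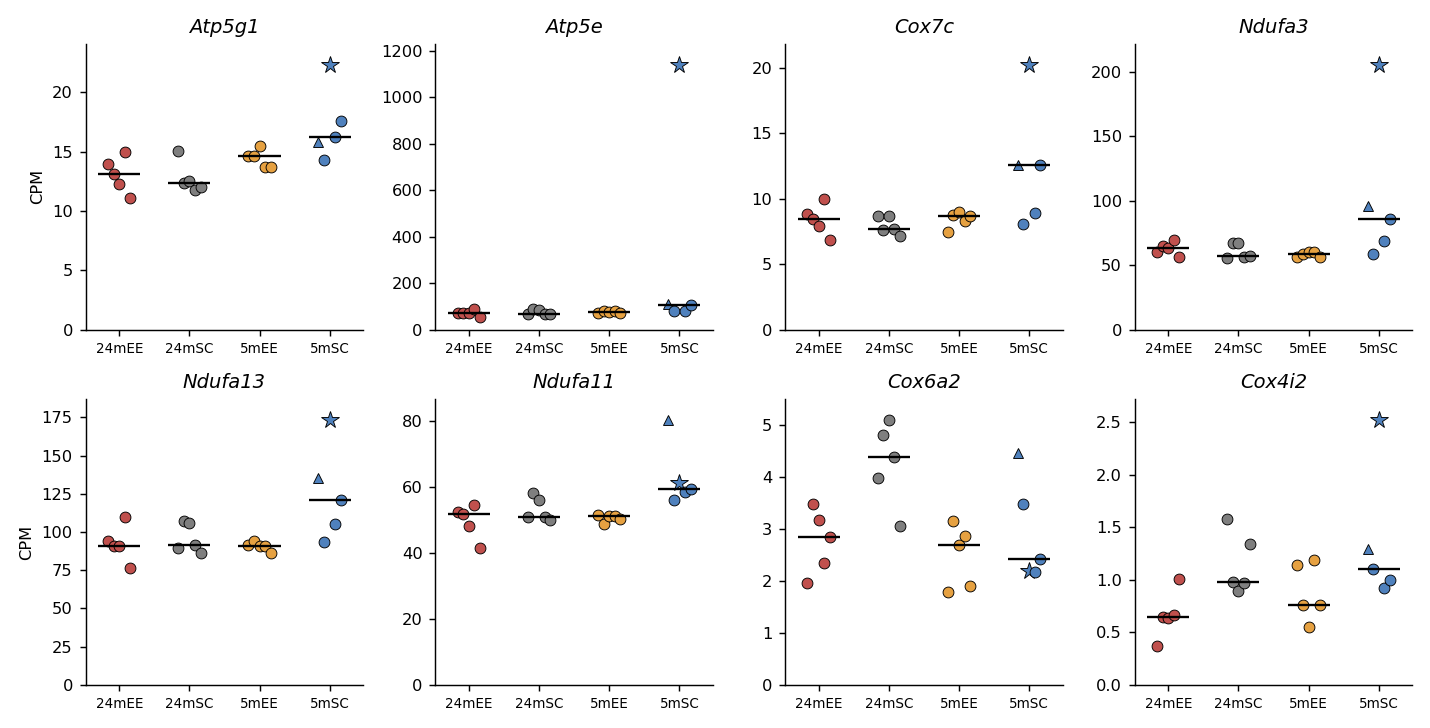
CPM of 8 of the nuclear members named in the comparisons, in each library by group: Atp5g1, Atp5e, Cox7c, Ndufa3, Ndufa13, Ndufa11, Cox6a2 and Cox4i2. Each point is a library, the black line the median of 5, the star 5mSC replicate 3 and the triangle 5mSC replicate 1. The star lies far above the other libraries for Atp5e (1139 CPM) and Ndufa3 (205 CPM), and Cox6a2 in 24mEE (1.95 to 3.48 CPM) lies mostly below 24mSC (3.06 to 5.08 CPM).

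The comparison of ages in enriched mice, 24mEE vs. 5mEE, again has 5mSC in its model but not in its group means. Nuclear members had a median log2 fold change of 0.00 (48 positive, 43 negative) and mitochondrial mRNAs -0.02. By edgeR 0 members passed (0.108% of all genes, 0.269% in 19 libraries) and 0 were at an unadjusted p under 0.05, DESeq2 called 0, and limma voom with quality weights called 0, with 1 nuclear and 1 mitochondrial gene lower at an unadjusted p under 0.05 (6.11% of all genes). Over all genes the count was 18 in 20 libraries, 45 without 5mSC replicate 3, 97 without both 5mSC replicates 1 and 3 and 52 in a fit of the 2 groups alone, with 0 members called in each. The smallest p values belonged to Ndufaf5 (-0.10 ± 0.0718), Cox4i2 (-0.42 ± 0.313), Atp5g1 (-0.14 ± 0.105) and, of the mitochondrial genes, mt-Nd2 (-0.22 ± 0.186), all with an adjusted p of 1. The nuclear median of the age comparison was thus 0.00 in enriched mice and -0.20 in standard cages, and the test of that difference in each gene is the interaction.

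The interaction is the log2 fold change of 24mEE vs. 24mSC minus that of 5mEE vs. 5mSC. Its median was 0.21 over nuclear members (77 of 91 positive) and 0.25 over mitochondrial mRNAs, against 0.01 over all genes and 0.16 over genes with an exon length under 1500 nt. By edgeR 0 members passed (0% of all genes with 20 and with 19 libraries), and 25 of 91 nuclear genes were higher at an unadjusted p under 0.05 (4.4% of all genes), 16 in 19 libraries (4.71% of all genes) and 1, Ndufa3, without both 5mSC replicates 1 and 3 (4.66% of all genes). DESeq2 and limma voom with quality weights called 0. At that level 26 nuclear genes were higher by DESeq2 (4.35% of all genes), and 2, Cox6b2 and Ndufa3, by limma voom (3.82% of all genes). The nuclear median was 0.20 in 19 libraries (88 of 91 positive) and 0.12 without both 5mSC replicates 1 and 3 (75 of 91 positive), so fewer genes were past that level while most values stayed positive. The 7 choroid plexus markers tested had a median interaction of -1.06 in 19 libraries, with 6 negative and 5 lower at an unadjusted p under 0.05, and their part was not tested. Ndufa3 had an interaction of 0.85 ± 0.307 (adjusted p = 0.621), Cox7c of 0.62 ± 0.244 (adjusted p = 0.621) and Atp5e of 1.93 ± 0.765 (adjusted p = 0.621), which was 0.26 ± 0.165 for Atp5e in 19 libraries. Of the mitochondrial genes, mt-Nd6 had 0.43 ± 0.275 (adjusted p = 0.668), mt-Cytb 0.43 ± 0.308 (adjusted p = 0.694) and mt-Nd4 0.25 ± 0.192 (adjusted p = 0.705), and in 19 libraries 0.11, 0.05 and 0.12.

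Several subunits exist as isoforms of which the brain uses mainly 1, and the level of the minor isoform was taken as a percentage of the major one, per kb. In the 19 libraries Cox4i2 stood at a median of 0.395% of Cox4i1 (0.172% to 0.76%), Cox6a2 at 1.31% of Cox6a1 (0.75% to 1.87%) and Cox6b2, the testis isoform, at 0.821% of Cox6b1 (0.583% to 1.07%). Cox7a1, the heart and muscle isoform, stood at 2.17% of Cox7a2 (0.977% to 3.33%), Ndufa4l2 at 1.34% of Ndufa4 (0.828% to 1.89%) and, below the filter, Cox7b2 at 0.226% of Cox7b (0% to 0.415%) and Cox8b at 0.171% of Cox8a (0.0509% to 0.277%). For subunit c, whose 3 genes encode the same mature protein, Atp5g1 stood at 2.52% (2.05% to 3.05%) and Atp5g2 at 0.549% (0.37% to 0.911%) of Atp5g3. In these 19 libraries each of these minor isoforms thus stayed below 4% of its partner. Cox7a2l, a relative of Cox7a2 that acts in supercomplex assembly, is not such a minor form: it stood at 38.6 CPM per kb.

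In 5mSC replicate 3 each minor isoform was still below its partner, but 5 of the 9 shares were higher than elsewhere. Cox7a1 reached 43.7% of Cox7a2, Atp5g1 3.49% and Atp5g2 1.55% of Atp5g3, Cox8b 2.36% of Cox8a and Cox7b2 1.26% of Cox7b, each above the range of the other libraries. Cox6b2 (0.388%) and Ndufa4l2 (0.648%) were below their range, and Cox4i2 (0.394%) and Cox6a2 (0.931%), a muscle isoform like Cox7a1, were inside it. Cox7a1 itself had 37.5 CPM in that library, against 1.42 to 1.69 CPM in the other 4 libraries of 5mSC. The muscle markers summed to 14.2 CPM in that library, against 7.04 to 12.4 CPM in the other 19, with Myh1 at 0 in it, and their part in the Cox7a1 level was not tested.

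**Figure D5:**
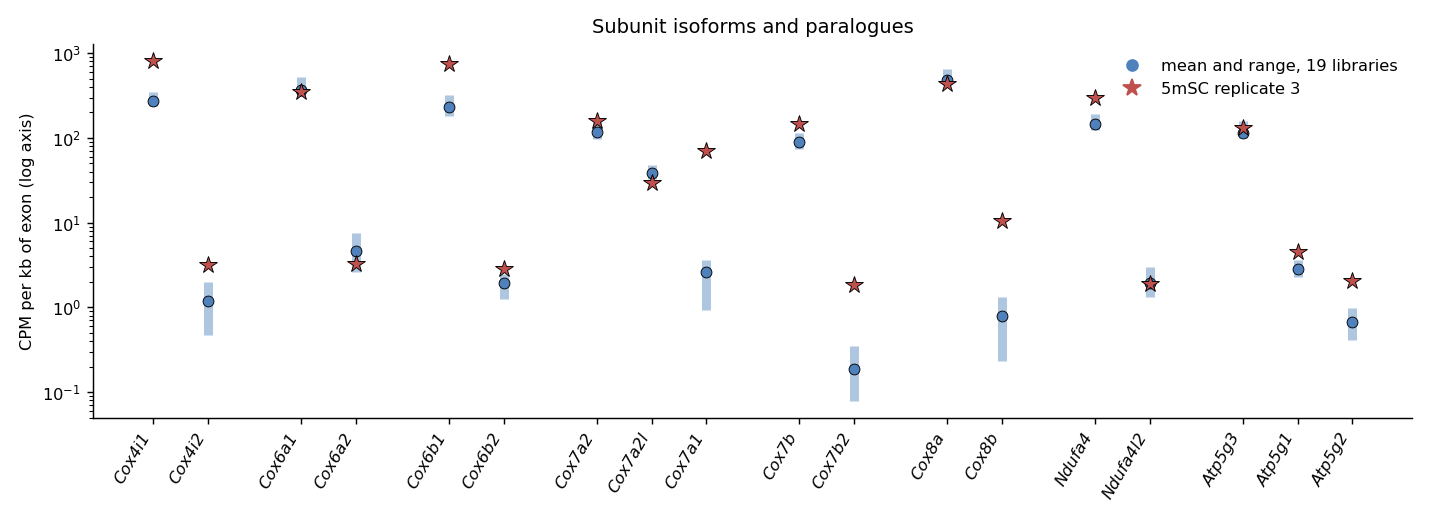
CPM per kb of exon (log axis) of each isoform family in the 19 libraries other than 5mSC replicate 3 (mean, with the range of values above 0) and in 5mSC replicate 3 (star). Apart from Cox7a2l, the minor isoforms lie below 4% of their partners per kb in the 19 libraries. Cox7a1 is at 43.7% of Cox7a2 in 5mSC replicate 3.

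Other genes of mitochondria and translation were described by the same counts. In 24mSC vs. 5mSC, with 20 libraries, 0 genes of each of the following lists passed by edgeR. Of all genes tested 0.803% passed (3.58% in 19 libraries). Lower at an unadjusted p under 0.05 were 11.7% of all genes (11.6% in 19 libraries). Higher at that level were 1456 of all 16692 genes (1783 of 16755 in 19 libraries). Of 77 mitochondrial ribosomal protein genes, which translate the 13 mRNAs, 21 were lower at an unadjusted p under 0.05 and the median log2 fold change was -0.13 (-0.15 in 19 libraries, 25 lower). Of 76 cytosolic ribosomal protein genes 37 were lower, with a median of -0.34 (-0.16 in 19 libraries, 10 lower). Of 38 other assembly factors 8 were lower, with a median of -0.05 (-0.09 in 19 libraries, 9 lower, of which Sdhaf2 passed). Pet100, a small complex IV assembly factor, had the smallest p of these, at a log2 fold change of -3.13 ± 0.804 (adjusted p = 0.0587). Cox14 followed at -0.42 ± 0.114 (adjusted p = 0.0687). In 5mEE vs. 5mSC, which shares the 5mSC libraries, Pet100 had nearly the same value, -3.08 ± 0.796 (adjusted p = 0.223). Its value without 5mSC replicate 3 is not given. The 20 tricarboxylic acid cycle and pyruvate dehydrogenase genes had a median of 0.04 (3 higher, 2 lower at that level), which turned to -0.07 in 19 libraries (2 higher, 4 lower). The 17 glycolysis genes had 0.10 (2 higher), which turned to -0.02 in 19 libraries (1 higher), and the 20 carriers and porins -0.02 (2 higher, 3 lower), with -0.12 in 19 libraries (1 higher, 3 lower). In the regulators of mitochondrial biogenesis the median was 0.00 (3 higher, 3 lower of 16; -0.01 in 19 libraries), with Esrrg, an orphan nuclear receptor, at 0.35 ± 0.101 (adjusted p = 0.0738) and Prkaa2, a catalytic subunit of AMPK, at 0.33 ± 0.104 (adjusted p = 0.0981). In the 22 genes of mitochondrial transcription and replication the median was -0.09 (5 lower, 1 higher), and -0.03 in 19 libraries (6 lower). Fastkd5 had -0.62 ± 0.161 (adjusted p = 0.0599) and Slirp -0.72 ± 0.212 (adjusted p = 0.0814), both proteins that act on mitochondrial RNA. In 5mEE vs. 5mSC, with the same 5mSC libraries, Fastkd5 had -0.55 ± 0.159 and Slirp -0.62 ± 0.21. The values of Cox14, Esrrg, Prkaa2, Fastkd5 and Slirp without 5mSC replicate 3 are not given.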

How the data were processed

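Hippocampal RNA of 20 mice was sequenced from TruSeq v2 libraries, which do not mark the strand. Per the labels the authors deposited whole-number read counts per Ensembl gene, and the submitters' processing notes name bcl2fastq 1.8.2, STAR 2.4.1d, featureCounts 1.4.6-p4 and GRCm38. The study's own results rest on another alignment and counting and on more libraries. The deposited RPKM table was not used. Replicates are numbered in order of deposition and pair nothing. The study's animals were kept in runs, and its own model took the sequencing run into account. The labels name no run or batch, so whether run and group coincide is not known. An effect of run could not be separated from the group differences here.

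Counts were analysed with edgeR 4.0.16 in R 4.3.3 (filterByExpr with least count 10, least total 15, TMM, quasi-likelihood test, 1 model of 4 groups over 16692 genes, or 16755 in 19 libraries). P values were adjusted by Benjamini-Hochberg over all genes tested, with 0.05 as the threshold for calling a gene. The SE of an edgeR value is its absolute log2 fold change divided by the square root of the quasi-likelihood F. It is thus derived from the test and is not a separate estimate. CPM are on the TMM scale, log2 CPM with 0.5 counts added. The floor of 3 counts covers counting error only. The gene symbols came from GENCODE M21. Alternatives were DESeq2 1.42.0, DESeq2 size factors, other filters, fits of 2 groups, an exon length offset, libraries scaled without mitochondrial RNA, limma 3.58.1 voom with sample quality weights, and leaving out libraries. Reads of overlapping genes or of shared words of 50 bases cannot be assigned with certainty. The model was tested on simulated data.

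Members, lists and tests were chosen with earlier results of these data known. Named were the members that passed, or else the 3 nuclear and 3 mitochondrial genes with the smallest p of each comparison, the highest and lowest gene per complex, the isoform families, the 5 genes farthest from the median each way in 5mSC replicate 3, and up to 2 genes per list. The genes whose groups did not overlap, or that passed in an alternative, were chosen after their values were seen.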

Additional observations from a re-analysis of the deposited data

Results flagged for a closer look

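In 100 groups of 5 libraries, 13 held a highest or lowest library whose gap to the next, divided by the range of the group, exceeded Dixon's critical value of 0.71, and 10 of these were 5mSC replicate 3. Chance alone gives such a gap in about 1 in 20 groups of values chosen beforehand. These values overlap, and many were chosen with those of 5mSC replicate 3 known. The counts are therefore a description and cannot be read as an excess over that share. In 5mSC replicate 3 these were the share of mitochondrial rRNA (26.8% of counts), the summed mitochondrial mRNAs (64596 CPM), the mean of the choroid plexus markers (3.498 log2 CPM), Atp5e (1139 CPM), Ndufa3 (205 CPM), Cox4i2 (2.52 CPM), mt-Nd1 (10740 CPM), mt-Nd2 (8232 CPM), mt-Nd6 (3276 CPM) and mt-Cytb (19387 CPM). Ndufa11 was high in 5mSC replicate 1 (80.1 CPM). In 24mSC, Atp5g1 was high in replicate 1 (15.1 CPM) and mitochondrial rRNA in replicate 2 (1.49% of counts).

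Mitochondrial tRNAs, which no comparison used, took 1.41% of the counts of 5mSC replicate 3, against 0.0153% to 0.0231% in the other 19 libraries.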

How the results depend on the processing

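No member result changed direction while called. Without 5mSC replicates 1 and 3 the mitochondrial median of 24mSC vs. 5mSC was -0.05 and with limma voom and quality weights -0.02, against -0.31. Genes called in 24mSC vs. 5mSC (134) were 759 with DESeq2, 59 with no filter, 3 in a fit of 2 groups, 254 with an exon length offset, 306 with voom, 363 without 5mSC replicates 1 and 3, and 28 to 1126 with 1 library left out; nuclear members called (0) were 13 with DESeq2 and 0 to 30 with 1 library left out. For 24mEE vs. 24mSC (0 genes) the counts were 31 with DESeq2, 187 with 2 groups, 379 with voom (1 nuclear member), 10 without 5mSC replicates 1 and 3 and 0 to 10 with 1 library left out. For 5mEE vs. 5mSC (0) they were 30 with DESeq2 and 0 to 1 with 1 left out. For 24mEE vs. 5mEE (18) they were 39 with DESeq2, 9 with no filter, 52 with 2 groups, 162 with voom, 97 without 5mSC replicates 1 and 3 and 3 to 45 with 1 left out. For the interaction (0) they were 6 with DESeq2, 1 without 5mSC replicates 1 and 3 and 0 to 1 with 1 left out. The causes were not tested. Of the other values, 683 for whole comparisons stayed within 1.5 times the count or, for medians, within 1 SD between libraries, and 862 for named genes kept direction and side of the threshold. Of 293 medians under alternatives 8 had the opposite sign: for nuclear members in 24mEE vs. 24mSC (-0.02) 0.02 with an exon length offset and 0.01 to 0.02 without 24mEE replicate 5, 24mSC replicate 2 or 24mSC replicate 3, and for mitochondrial mRNAs -0.02 in 24mEE vs. 24mSC (0.04) without 24mEE replicate 4, 0.01 in 5mEE vs. 5mSC (-0.19) with voom, and 0.04 and 0.03 in 24mEE vs. 5mEE (-0.02) without 5mEE replicate 4 or 24mEE replicate 5. No paired analysis was possible because the labels give no replicate numbers. The precision of a single member was set by standard errors of 0.0718 to 0.554 log2 units in the nuclear genes named in the 4 comparisons, and levels under 3 counts (0.0881 to 0.328 CPM) were not detectable.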

Other observations

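In 5mEE vs. 5mSC the related lists had values not given above, none of them with a gene that passed by edgeR with 20 libraries (0% of all genes). Lower at an unadjusted p under 0.05 were 10% of all genes there, and 8.04% in 19 libraries. Of 76 cytosolic ribosomal protein genes 52 were lower at an unadjusted p under 0.05, with a median log2 fold change of -0.42 (47 and -0.29 in 19 libraries), and of 77 mitochondrial ribosomal protein genes 18 were lower, with a median of -0.12 (23 and -0.14 in 19 libraries). Mpc2, a subunit of the mitochondrial pyruvate carrier, had a log2 fold change of -0.48 ± 0.146 (adjusted p = 0.223) in 5mEE vs. 5mSC and of -0.48 ± 0.147 (adjusted p = 0.0895) in 24mSC vs. 5mSC, which share the 5mSC libraries. The values of Mpc2 without 5mSC replicate 3 are not given. In 24mEE vs. 24mSC the median of the 77 mitochondrial ribosomal protein genes was 0.00, with 0 at an unadjusted p under 0.05. Of all 16692 genes, 666 were lower and 371 higher at that level. The regulator Esrrg had -0.23 ± 0.100 (adjusted p = 0.704) in this comparison.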
